A study of Mus musculus and Homo sapiens with 18 samples.

Results

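The response to loss of Qk was compared gene by gene between mouse lens tissue and lens progenitor-like cells made from neural stem cells (NLPCs), to find which genes moved together, which moved in 1 system only and which moved in opposite directions. The comparison took in every gene counted under the same symbol on 1 row of both mouse tables, which were 44088 genes of 57441 symbols in either table and of 162600 gene rows over the 3 deposited tables. Of these, 16675 genes passed the count filter of the joint fit and 11217 passed it in each system on its own. All counts below are over these 11217 genes unless another number is given.

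Qk encodes Qki, an RNA-binding protein of the STAR family, and the study addressed its part in lens clarity and sterol production. Lens tissue came from mice aged postnatal days 17 to 19, all injected with tamoxifen on postnatal days 7 and 8. The 3 control lens samples (Ctrl) are labelled Nestin-CreERT2; QkL/+, so they carried the Cre transgene and 1 floxed allele, and the 3 Qk-iCKO samples are labelled Nestin-CreERT2; QkL/L. NLPCs were grown from neural stem cells of newborn Nestin-CreERT2; QkL/L brains, with noggin at 100 ng/ml for 6 days, followed for 12 days by bFGF at 100 ng/ml with BMP4 and BMP7, each at 20 ng/ml; 3 libraries are labelled wild type (WT), and 3 are labelled Qk-/-, for which the stem cells received 100 nM 4-hydroxytamoxifen. Cre from the Nestin promoter acts in the cells that used that promoter, so a Qk-iCKO lens can hold undeleted cells and cells of other lineages, and the NLPCs are made from brain cells and not from lens. The labels do not say whether the cultures were separate isolations, so p-values measure the spread between these samples, which may be technical.

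The labelled identities were checked against marker genes, each level summed over its list. The 8 lens fibre markers summed to 167300 to 202900 CPM, counts scaled to the library total, in the lens libraries and to 0.826 to 4.94 CPM in the NLPC libraries, and 5 lens epithelial markers summed to 16470 to 28470 CPM against 101 to 152 CPM. The 6 neural stem cell and astrocyte markers summed to 4434 to 6309 CPM in the NLPC libraries against 37.4 to 124 CPM in lens. By these markers, the NLPC libraries held neural RNA with almost no RNA of lens fibres, so the name is kept here as the label gives it. Gene counts totalled 10319320 to 16425331 per lens library and 28154202 to 68243360 per NLPC library. The library Qk-iCKO 1 stood apart in lens, with 56.2% of its counts from crystallins against 64.6 to 66.8% in the other 5, and the library Qk-/- 2 stood apart among NLPCs, with the lowest depth and a mean correlation of 0.901 to the others of its system. Counts of Y-linked genes were 3 or fewer in the 3 Ctrl lenses and in Qk-iCKO 1 and were 1051 and 930 in Qk-iCKO 2 and 3, so sex was not balanced between the lens groups, while every NLPC library had Y-linked counts. In the lens, 5 macrophage markers summed to 1.34 to 2.13 CPM in Ctrl and to 47.6 to 54.3 CPM in Qk-iCKO libraries, and in no NLPC library to more than 5.75 CPM. Of the 5, Csf1r, Adgre1 and Ptprc were higher in every Qk-iCKO lens than in any Ctrl lens, and Csf1r was the most abundant. Aif1 was at 0 in every Ctrl lens and at 0.18 to 0.71 CPM in Qk-iCKO. Cx3cr1 overlapped, with 0.24 to 0.48 CPM in Ctrl and 0.097 to 1.69 CPM in Qk-iCKO.

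Qk itself was counted at 1549, 1491 and 1635 normalized reads in the Ctrl lenses. The 3 Qk-iCKO lenses had 1292, 1118 and 1361, lower than every Ctrl lens, with a log2 fold change of −0.31 ± 0.14 (adjusted p = 0.2), which did not pass the threshold. In NLPCs the WT libraries had 144300.0, 131843 and 137093 and the libraries labelled Qk-/- had 194188, 166597 and 189389, a log2 fold change of 0.41 ± 0.09 (adjusted p = 0.027), in the direction opposite to the label. The deleted exon is a small part of the gene (chr17:10206471-10319361, GRCm38), so a count over the whole gene does not check the deletion. The libraries are therefore named below by their labels. Normalized reads here and below are counts divided by effective library size and scaled to the mean of the system, so they compare libraries within a system and not lens with NLPC. The NLPC call of Qk was lost without any WT library, Qk-/- 1 or Qk-/- 3 (adjusted p up to 0.173). Its interaction, −0.72 ± 0.21 (adjusted p = 0.0499), was lost without any Ctrl lens, Qk-iCKO 2 or any of the same 5 NLPC libraries (up to 0.136) and under the replicate block (0.0718), a fit with the replicate number as a term.

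A lens grows by turning epithelial cells into elongated fibre cells that lay down crystallins, build a membrane rich in cholesterol and then degrade their organelles. Neural stem cells self-renew under Notch and FGF signals and give rise to neurons and glia. Qki proteins bind RNA and are known for their work in glial cells, where they shape the splicing, stability and translation of messenger RNAs that serve myelination, and lens epithelium and neural stem cells both arise from ectoderm.

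Most genes called in 1 system were not called in the other. A gene was called where its adjusted p was under 0.05, from edgeR's quasi-likelihood test with Benjamini-Hochberg adjustment, fitted in each system on its own. In lens 861 of the 11217 genes rose, 7.68% of those tested, and 436 fell, 3.89%. In NLPCs 667 rose, 5.95%, and 1011 fell, 9.01%. Over every gene tested in its own system, 1023 of 12201 rose in lens (8.38%) and 473 fell (3.88%), and 965 of 20371 rose in NLPCs (4.74%) and 1214 fell (5.96%). Called in both were 275 genes, 2.45% of all. Of the lens calls 21.2% were also called in NLPCs, against 15% of all genes, and of the NLPC calls 16.4% were also called in lens, against 11.6% of all genes. Over all genes the log2 fold changes of the systems correlated at r = 0.168, a description across genes, which are not independent, and 56.2% of genes had the same sign. The 3 libraries of one group did not overlap those of the other for 35% of genes in lens, for 43.2% in NLPCs and for 1786 genes, 15.9%, in both. The genes named below for their class were chosen among those whose groups do not overlap where they are called, so that separation is no result of its own. With 3 libraries against 3, an exact permutation test of 1 gene cannot go below 0.1, so the tests named are those of the model. Where no gene of a list was called in a direction, the number at an unadjusted p under 0.05 and the number called by DESeq2 are given beside it. A gene with next to no reads in the controls of a system can pass its count filter only through the deleted libraries. For every list that holds such genes, the shares called and the medians below are therefore partly set by the filter.

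The difference between the systems was tested for each gene as an interaction in 1 joint fit of all 12 libraries. The interaction is the lens log2 fold change minus the NLPC log2 fold change. The contrasts also differ in controls and drug exposure. Both lens groups carried Cre and received tamoxifen, and the Ctrl lenses had 1 floxed allele by label. Among NLPCs, hydroxytamoxifen is listed for the Qk-/- libraries only. An interaction can therefore carry these differences as well as that of cell system, and their part was not tested. By the interaction test 1249 genes, 11.1%, differed between the systems, 865 (7.71%) with the higher value in lens and 384 (3.42%) with the lower. Over the 16675 genes of the joint fit, 1472 were called (8.83%), 1048 (6.28%) higher and 424 (2.54%) lower in lens. This split depended on scaling, filter and test. With library totals alone and no TMM factors, 84.7% of the interaction calls over the genes of the joint fit were higher in lens, against 71.2% with TMM factors within each system. The share was 62.4% with TMM factors over all 12 libraries, 63.4% with at least 10 counts in every library and 55.8% by DESeq2, which called 1379 higher and 1094 lower. With totals alone, 86.7% of the lens calls were increases against 68.4%. With totals alone the median log2 fold change of all genes tested in lens moved from 0.006 to 0.29, so lens increases and decreases below are relative to a zero set by TMM.

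Genes fell into classes by these 3 tests. Together moved 115 genes that rose in both systems (1.03%) and 53 that fell in both (0.472%). In opposite directions went 71 genes that rose in lens and fell in NLPCs (0.633%) and 36 that fell in lens and rose in NLPCs (0.321%). The interaction was called for each of these 107, which opposite calls in both systems all but ensure. A gene was put in the class of 1 system where it was called there and in the interaction and had an unadjusted p of at least 0.05 in the other system. By this rule 308 genes rose (2.75%) and 115 fell (1.03%) in lens, and 85 rose (0.758%) and 168 fell (1.5%) in NLPCs. In these classes the interaction call is part of the rule and no result of its own. The rule also sets the sign of a class median where it requires a call, and limits it in the other system. Class medians below therefore describe size only. A call in 1 system and none in the other was often no difference between them. Of 1022 genes called in lens alone, 471 (46.1%) had no interaction call, and of 1403 called in NLPCs alone, 1033 (73.6%) had none.

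**Figure D1:**
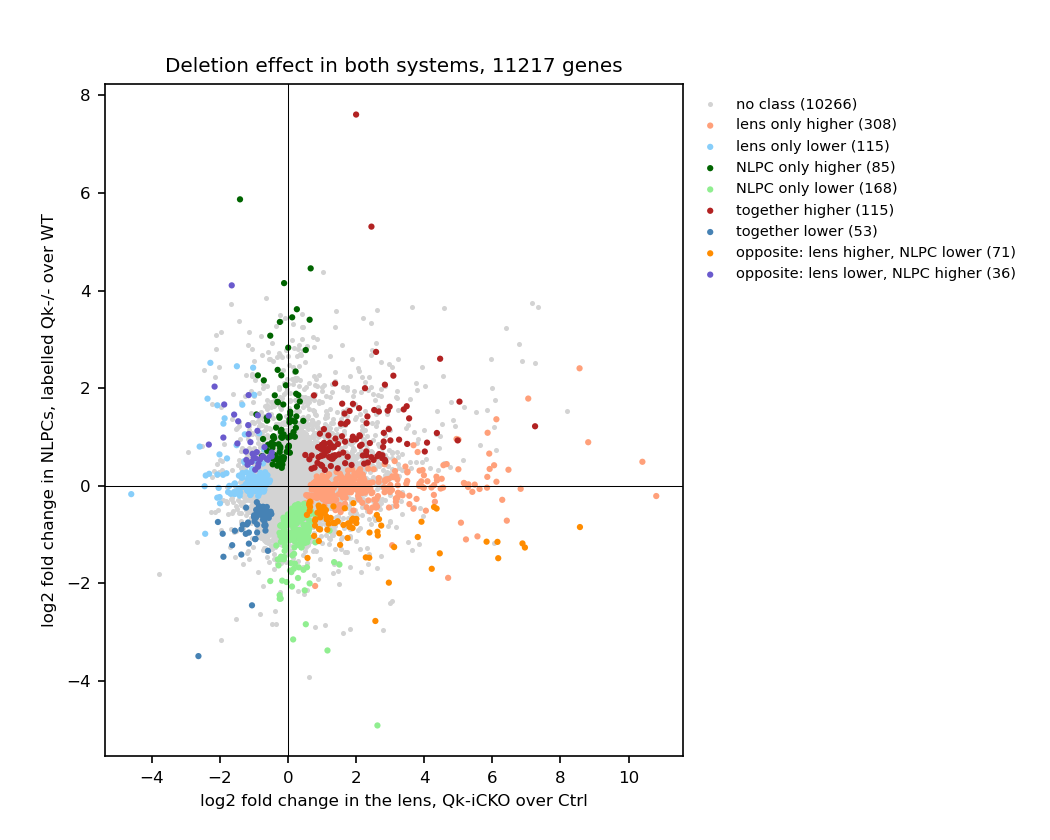
Log2 fold change on deletion in lens (horizontal axis) against that in NLPCs (vertical axis), 1 point per gene for the 11217 genes tested in both systems and colored by class, with 10266 genes in no class. The classes that moved together lie in the lower left and upper right corners, those that moved oppositely in the other corners, and the fitted value of a gene with no count in a group depends on the prior count.

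Among the genes that rose in both systems were an adhesion kinase, a matrix inhibitor of calcification and a sterol exporter. Over the 115, the median log2 fold change was 1.69 in lens and 0.82 in NLPCs. The class takes only genes called higher in both, so medians above those of all genes tested (0.0040 and −0.084) follow from the rule. The interaction was called for 35 of them, and in 33 of these 35 the lens change was the larger. Named first are the 6 with the largest change in the system where it was smaller.

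Ptk2b (chr14:66153257-66281100) encodes a calcium-responsive kinase of the focal adhesion kinase family. It had 2.13, 4.59 and 0.883 normalized reads in the Ctrl lenses and 121, 39.9 and 11.7 in the Qk-iCKO lenses, which is a log2 fold change of 4.47 ± 0.97 (adjusted p = 0.0255). Its NLPC values were 17.4, 12.8 and 8.64 in WT and 61, 75.6 and 101 in Qk-/- libraries, a change of 2.6 ± 0.57 (adjusted p = 0.0267). As the naming rule required, the lowest deleted library lay above the highest control library in both systems. The deleted lenses ranged from Qk-iCKO 3 at the bottom to Qk-iCKO 1 at the top. Tmem151a, a transmembrane protein gene, went from 1.07, 4.59 and 1.77 in Ctrl to 36.3, 13.7 and 15.6 in Qk-iCKO lenses and from 57.6, 35.7 and 49.5 in WT to 225, 214 and 248 in Qk-/- NLPCs. Its changes were 3.10 ± 0.63 (adjusted p = 0.0207) and 2.26 ± 0.30 (adjusted p = 0.00339). Pear1, a receptor of the EGF-repeat family first described on platelets and endothelium, changed by 2.85 ± 0.59 (adjusted p = 0.0215) in lens and 2.07 ± 0.49 (adjusted p = 0.0343) in NLPCs, and Mgp, which encodes matrix Gla protein, an inhibitor of calcification, by 2.59 ± 0.58 (adjusted p = 0.0285) and 2.75 ± 0.67 (adjusted p = 0.0372). Both had no overlap between their groups, which the naming rule required.

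Vill and Abcg1 had next to no counts in the WT NLPCs. Vill, a villin-like gene of the gelsolin family, had 5.33, 6.42 and 3.53 in Ctrl and 34.7, 23.7 and 26 in Qk-iCKO lenses, which is a log2 fold change of 2.45 ± 0.37 (adjusted p = 0.00674). Its WT NLPC libraries held 3 reads in all against 94 in Qk-/- libraries, a ratio of 39.0 with a 95% counting interval of 12.9 to 192. Abcg1, which exports cholesterol to lipoprotein particles, had 19.2, 32.1 and 14.1 in Ctrl and 120.0, 56 and 85.7 in Qk-iCKO lenses, which is a log2 fold change of 2.00 ± 0.39 (adjusted p = 0.0179). No WT NLPC library held a read of Abcg1, and Qk-/- libraries had 13.6, 31.3 and 28.2, at least 25.7-fold higher than the 3 reads over the group that a count of 0 allows. The Abcg1 interaction had an adjusted p of 0.0149, with the larger change in NLPCs.

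Plk2 and C3 rose in both systems with each library left out in turn. Plk2, a polo-like kinase and p53 target, had 9.6, 14.7 and 16.8 in Ctrl and 74.2, 67.2 and 65 in Qk-iCKO lenses and 4559, 4400.3 and 4900.3 in WT and 11164, 11009.7 and 11580.5 in Qk-/- NLPCs. It rose by 2.31 in lens and 1.28 in NLPCs, and the interaction was 1.03 ± 0.22 (adjusted p = 0.0113). C3, the central complement component, rose from 4.26, 2.75 and 0.883 to 386, 604 and 234 in lens and from 10492, 9399.9 and 11179 to 26484, 22428 and 23538 in NLPCs. Those changes were 7.26 ± 0.55 (adjusted p = 0.000554) and 1.22 ± 0.10 (adjusted p = 0.000534), and the lens change was larger by 6.08 ± 0.55 (adjusted p = 6.37e-05).

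For the weaker members of this group the calls depended on single libraries. With 1 lens library left out, Ptk2b (any Ctrl, adjusted p up to 0.105), Pear1 (any Ctrl, up to 0.0915), Tmem151a (Ctrl 1, Ctrl 3 or Qk-iCKO 1, up to 0.0947), Mgp (Ctrl 1, Ctrl 2, Qk-iCKO 2 or 3, up to 0.102) and Abcg1 (Ctrl 1 or 3, up to 0.0815) were no longer called in lens. In NLPCs, Ptk2b, Pear1, Mgp and Abcg1 lost the call without any WT library, Qk-/- 1 or Qk-/- 3 (adjusted p up to 0.148, 0.114, 0.155 and 0.137) and Vill without any 1 of the 6 (up to 0.211). Under the replicate block, the NLPC calls of Ptk2b (adjusted p = 0.0525), Mgp (0.0585) and Abcg1 (0.0859) were also lost.

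**Figure D2:**
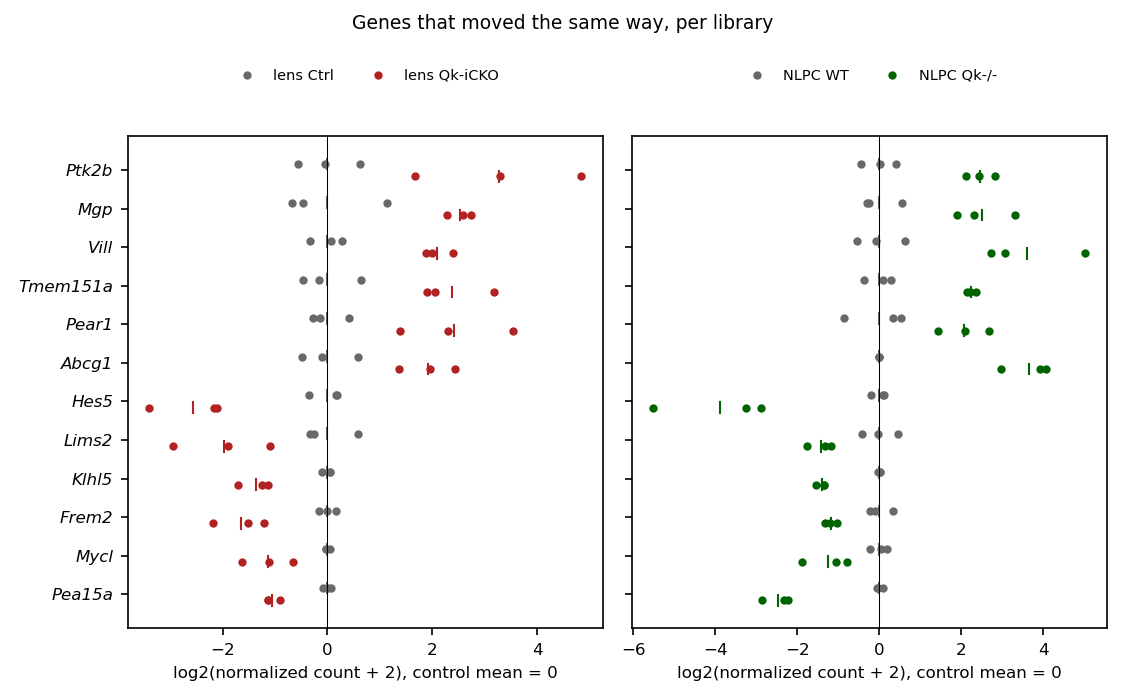
Genes that moved together, with 1 point per library on the scale log2(normalized reads + 2) after subtracting the mean of the controls of the same system, for lens and NLPC, and vertical ticks at group means. For Hes5, Klhl5 and Pea15a the 3 deleted libraries lie below all controls in both systems, and for Ptk2b and Tmem151a above them. The rule that named these genes required this separation.

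The genes that fell in both systems included the Notch effector Hes5, the kelch gene Klhl5 and Pea15a, which were called in both systems with each library left out. Over the 53, the median log2 fold change was −0.90 in lens and −0.69 in NLPCs, and the interaction was called for 4. Hes5 (chr4:154960626-154962372), a transcriptional repressor that keeps neural progenitors undifferentiated, had 55.4, 80.7 and 81.2 in Ctrl and 15, 4.98 and 14.3 in Qk-iCKO lenses. Among NLPCs it had 959, 1182 and 1169 in WT and 147, 22.1 and 114 in Qk-/- libraries. Its log2 fold changes were −2.63 ± 0.39 (adjusted p = 0.00678) in lens and −3.49 ± 0.49 (adjusted p = 0.00432) in NLPCs, and an interaction of 0.88 ± 0.73 (adjusted p = 0.516) left the size of the difference between the systems unresolved.

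Klhl5 (chr5:65107551-65168173), which encodes an actin-binding kelch protein, changed by almost the same factor in both systems. It had 269, 242 and 271 in Ctrl and 78.9, 117 and 109 in Qk-iCKO lenses, and 7040.2, 7037 and 6782 in WT and 2740.3, 2385 and 2733 in Qk-/- NLPCs. Its changes were −1.37 ± 0.18 (adjusted p = 0.00411) and −1.41 ± 0.09 (adjusted p = 0.000242), and the interaction was 0.04 ± 0.20 (adjusted p = 0.964). Pea15a (chr1:172196728-172206804), which binds ERK and death-domain proteins and is abundant in astrocytes, had 3834, 3464 and 3667 in Ctrl and 1949, 1672 and 1661 in Qk-iCKO lenses. In NLPCs it went from 49608, 54702 and 49829 to 10186, 7037 and 11017. It fell in both, by −1.05 ± 0.15 (adjusted p = 0.00565) and −2.45 ± 0.17 (adjusted p = 0.000265), and further in NLPCs than in lens, with an interaction of 1.40 ± 0.23 (adjusted p = 0.00289).

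Lims2, an adaptor of integrin adhesions, Frem2, a basement membrane protein that is mutated in Fraser syndrome, and Mycl, a MYC family factor, completed the 6. Their log2 fold changes in lens were −1.89, −1.63 and −1.14, and in NLPCs −1.45, −1.22 and −1.18, with adjusted p from 0.00864 to 0.0393. By the rule that named them, the groups of each did not overlap in either system. Lims2 and Mycl lost the lens call without any Ctrl lens or Qk-iCKO 1, and Mycl also without Qk-iCKO 2 (adjusted p up to 0.117 and 0.125). In NLPCs all 3 lost it without WT 1, WT 2 or Qk-/- 1 and some without WT 3 or Qk-/- 3 (up to 0.0906, 0.198 and 0.125), and the NLPC call of Frem2 was lost with the replicate block (adjusted p = 0.071). With library totals alone, the lens calls of Lims2, Frem2, Mycl and Pea15a were lost.

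Over the 71 genes that rose in lens and fell in NLPCs, the median log2 fold change was 1.63 in lens and −0.76 in NLPCs. The 5 with the largest interaction had few reads in the Ctrl lenses and many in the WT NLPCs. Ranking by interaction favours genes with few reads in a control group. Lcn2 (chr2:32384637-32387739), which encodes lipocalin 2, an iron-siderophore binding protein of the acute phase, had 3.2, 3.67 and 0.883 in Ctrl and 1941, 1073 and 19.5 in Qk-iCKO lenses. It had 3930.3, 4345 and 4381 in WT and 2323, 1993 and 2728 in Qk-/- NLPCs. The 3 Qk-iCKO lenses differed widely, with Qk-iCKO 3 far below the other 2 and still above every Ctrl lens. The changes were 8.57 ± 1.70 (adjusted p = 0.0186) in lens and −0.84 ± 0.13 (adjusted p = 0.00551) in NLPCs. The lens call was lost without any 1 Ctrl lens (adjusted p up to 0.0847) and the NLPC call without WT 3 (0.0536). The interaction of 9.46 ± 1.62 (adjusted p = 0.00344) was not called by limma-voom with weights by system.

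Emp1 (chr6:135362550-135383173), an epithelial membrane protein of the claudin superfamily, had 10.7, 2.75 and 6.18 in Ctrl and 695, 478 and 1137 in Qk-iCKO lenses. In NLPCs it fell from 3972, 3765 and 3715 to 1695, 1690.2 and 1671. Its changes of 6.89 ± 0.50 (adjusted p = 0.000554) and −1.18 ± 0.09 (adjusted p = 0.000331) gave an interaction of 8.09 ± 0.48 (adjusted p = 7e-06). Serpina3n (chr12:104406646-104414334), a secreted serine protease inhibitor that marks reactive astrocytes, rose from 36.2, 17.4 and 37.1 to 3669.5, 1786 and 1107 in lens and fell from 29308, 36198 and 34670.1 to 11685, 10584 and 13582 in NLPCs. These were changes of 6.18 ± 0.56 (adjusted p = 0.00102) and −1.48 ± 0.12 (adjusted p = 0.000534).

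Acss1, the mitochondrial acetyl-CoA synthetase, and Cdh13, a cadherin anchored by lipid and without a cytoplasmic part, had 1 and 3 reads over the Ctrl lenses. Acss1 had 91.6, 38.6 and 32.5 in Qk-iCKO lenses, a ratio to Ctrl of 191 with a counting interval of 33.9 to 7605, and it fell from 2590.0, 2544 and 2411 to 1205, 887 and 1047 in NLPCs, a change of −1.26 ± 0.13 (adjusted p = 0.00118). Cdh13 had 109, 54.8 and 63.7 in Qk-iCKO lenses, a ratio of 85.7 with an interval of 29.0 to 419, and fell from 10929, 10389 and 10824 to 5279, 3897 and 5325 in NLPCs, a change of −1.15 ± 0.13 (adjusted p = 0.00147). Acss1, Emp1, Serpina3n and Cdh13 kept both calls with each library left out.

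The reverse group fell in lens and rose in NLPCs, with medians of −1.0 and 0.69. Rgs8 (chr1:153652959-153697669), a regulator that shortens G protein signals, had 239, 205 and 264 in Ctrl and 52.9, 42.3 and 45.5 in Qk-iCKO lenses. It had 650.1, 673 and 766 in WT and 1219.6, 1248 and 1290.4 in Qk-/- NLPCs. Its changes were −2.32 ± 0.17 (adjusted p = 0.000554) in lens and 0.85 ± 0.12 (adjusted p = 0.00393) in NLPCs, and the spread within each group was small beside either. Fn3k (chr11:121434953-121450490), which encodes fructosamine 3-kinase, an enzyme that removes sugar adducts from proteins, fell from 90.6, 102 and 75.9 to 14.2, 23.7 and 23.4 in lens. In NLPCs it rose from 62.3, 45.9 and 69.9 to 210.0, 267 and 257. Those were changes of −2.15 ± 0.27 (adjusted p = 0.00351) and 2.03 ± 0.29 (adjusted p = 0.00425).

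Slc24a2 (chr4:86983124-87230652), a potassium-dependent sodium-calcium exchanger, went from 118, 96.3 and 105 to 29.2, 48.6 and 29.9 in lens and from 202, 126 and 192 to 522, 507 and 409 in NLPCs. It changed by −1.58 ± 0.25 (adjusted p = 0.00791) and 1.46 ± 0.23 (adjusted p = 0.00623). Rgs8, Fn3k and Slc24a2 kept both calls with each library left out. Ogn, a small leucine-rich matrix proteoglycan, had 3549, 3594 and 4545 in Ctrl and 1069, 1548 and 1115 in Qk-iCKO lenses and 0.789, 1.28 and 2.36 in WT and 26.1, 22.1 and 34.6 in Qk-/- NLPCs. It fell in lens by −1.65 ± 0.21 (adjusted p = 0.0035), and the NLPC change, 4.11 ± 0.96 (adjusted p = 0.0324), lost its call without any WT library, Qk-/- 1 or Qk-/- 3 (adjusted p up to 0.174) and with the replicate block (0.0708). Pex5l, a relative of the peroxisomal import receptor that works on ion channels of neurons, changed by −1.87 ± 0.41 (adjusted p = 0.0273) and 1.67 ± 0.12 (adjusted p = 0.000331), and its lens call was lost without Ctrl 1, Ctrl 2, Qk-iCKO 1 or Qk-iCKO 3 (adjusted p up to 0.0781).

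**Figure D3:**
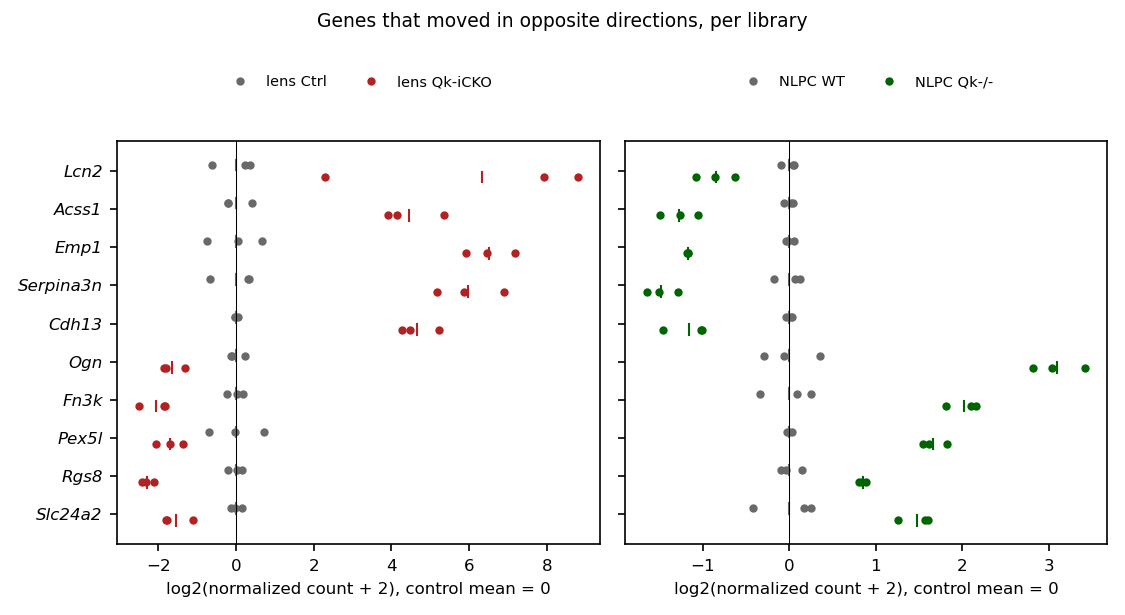
Genes that moved in opposite directions, with 1 point per library on the scale log2(normalized reads + 2) after subtracting the mean of the controls of the same system, and vertical ticks at group means. Deleted lenses lie above and deleted NLPCs below their controls for Emp1, Serpina3n and Cdh13, and the reverse holds for Rgs8, Fn3k and Slc24a2. The rule that named these genes required this separation.

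Over the 308 genes that rose in lens alone, the median log2 fold change was 1.85 in lens and −0.046 in NLPCs. Those named for the largest increase had 3 or fewer reads over the Ctrl lenses. Ranking by fold change favours such genes, which pass the lens count filter only through the Qk-iCKO libraries. Spp1, which encodes osteopontin, a secreted phosphoprotein of matrix and inflammation, had no read in any Ctrl lens and 229, 13.7 and 433 in the Qk-iCKO lenses, at least 235-fold higher than the floor of 3 reads over the group. The NLPCs had 870.2, 1007 and 762 in WT and 687, 1088 and 519.6 in Qk-/- libraries, a change of −0.21 ± 0.26 (adjusted p = 0.648). Its lens call rested on the libraries, since it was lost without any Ctrl lens, Qk-iCKO 1 or Qk-iCKO 3 (adjusted p up to 0.0978), while the interaction (adjusted p = 0.00826) was kept in every one of these. Ccl7 (chr11:82045712-82047525), a chemokine that draws monocytes, had 3 reads over the Ctrl lenses and 141, 123 and 103 in Qk-iCKO lenses, a ratio of 132 with a counting interval of 44.8 to 644. NLPC libraries had 123, 112 and 69.1 in WT and 123, 47.9 and 119 in Qk-/- libraries, which overlap. Fosb, an immediate early factor of the AP-1 family, had 2 reads over the Ctrl lenses and 121, 12.5 and 66.3 in Qk-iCKO lenses, a ratio of 119 with an interval of 32.6 to 990, and its lens call was lost without any 1 Ctrl lens (adjusted p up to 0.0547).

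Decreases in lens alone had a median of −1.07 against 0.10 in NLPCs over 115 genes. Rgs4 (chr1:169741477-169747642), another inhibitor of G protein signals, had 265, 293 and 405 in Ctrl and 6.32, 24.9 and 10.4 in Qk-iCKO lenses, a change of −4.60 ± 0.42 (adjusted p = 0.00107). In NLPCs it had 819, 802 and 879 in WT and 724, 748 and 752 in Qk-/- libraries, a change of −0.17 ± 0.11 (adjusted p = 0.372) that is smaller than the lens change by an interaction of −4.44 ± 0.44 (adjusted p = 0.000106). Rapgef5, an exchange factor for the GTPase Rap1, fell in lens by −2.31 ± 0.24 (adjusted p = 0.00165), Dusp15, a dual specificity phosphatase, by −2.07 ± 0.23 (adjusted p = 0.00189), and Zswim5, a zinc finger protein gene, by −2.07 ± 0.16 (adjusted p = 0.000612). Their NLPC changes were 0.25, −0.24 and 0.23, and none of these passed the test.

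Of the changes in NLPCs alone, the 85 that rose had a median of 1.06 in NLPCs and −0.19 in lens, and the 168 that fell had −0.91 and 0.21. Iqsec3 (chr6:121372927-121473738), an ARF exchange factor of inhibitory synapses, had 20.5, 31.9 and 21.2 in WT and 268, 227 and 257 in Qk-/- NLPCs, a change of 3.36 ± 0.32 (adjusted p = 0.000801). In lens it had 23.5, 45.9 and 25.6 in Ctrl and 30.8, 26.2 and 23.4 in Qk-iCKO, which overlap. Fzd6 (chr15:39006149-39038192), a Wnt receptor that orders planar polarity, rose from 107, 58.7 and 76.2 to 544, 586 and 609 in NLPCs and had 355, 316 and 213 in Ctrl and 365, 298 and 225 in Qk-iCKO lenses. The Fzd6 interaction was −2.82 ± 0.36 (adjusted p = 0.000573). Stat5a, a cytokine-activated transcription factor, rose by 2.27 ± 0.53 (adjusted p = 0.0317), with its highest value in Qk-/- 2, and Dnajc6, auxilin, which strips clathrin from vesicles, by 2.06 ± 0.26 (adjusted p = 0.00262). The Stat5a call was lost without any WT library or Qk-/- 3 (adjusted p up to 0.159).

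Of the genes that fell in NLPCs alone, Plxdc2 (chr2:16355740-16761132), a plexin domain protein that binds the neurotrophic factor PEDF, went from 433, 505 and 448 to 43.6, 81.1 and 35.5, a change of −3.15 ± 0.33 (adjusted p = 0.00116). In lens it had 657, 532 and 561 in Ctrl and 613, 638 and 698 in Qk-iCKO. Tenm3 (chr8:48225665-49522824), a teneurin that matches neurons to their targets, fell from 749, 803 and 723 to 169, 160.4 and 152 in NLPCs, a change of −2.24 ± 0.15 (adjusted p = 0.000254). In lens it had 882, 938 and 852 in Ctrl and 749, 766 and 746 in Qk-iCKO, groups that do not overlap, with a change of −0.24 ± 0.12 (adjusted p = 0.246). Bche, butyrylcholinesterase, and Ttyh1, a tweety family channel protein of neural stem cells and glia, fell by −2.31 ± 0.23 (adjusted p = 0.000844) and −2.31 ± 0.17 (adjusted p = 0.000331) and changed by −0.24 and −0.21 in lens without passing the test.

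Sterol synthesis, the pathway the study followed, had medians of −0.55 in lens and −0.35 in NLPCs over 19 measured genes of the cholesterol pathway, where 16 and 15 of the 19 had values below 0. In lens 3 fell, 15.8% of the list against 3.89% of all genes, and none rose (1 at an unadjusted p under 0.05, 0 by DESeq2). In NLPCs 6 fell, 31.6% against 9.01%, and 1 rose, and no gene of the list was called lower in both. Fdps, farnesyl diphosphate synthase, had 43.7, 56 and 57.4 in Ctrl and 18.2, 31.1 and 23.4 in Qk-iCKO lenses, a change of −1.13 ± 0.28 (adjusted p = 0.0425), and −0.46 in NLPCs. Lss, lanosterol synthase, fell in lens by −0.98 ± 0.17 (adjusted p = 0.0112) and had −0.39 in NLPCs, and Mvd, mevalonate diphosphate decarboxylase, fell in NLPCs by −1.04 ± 0.26 (adjusted p = 0.039) and had −0.58 in lens. Of the 19 genes, only Hsd17b7, which reduces the 3-keto group of the sterol intermediates, had an interaction call. It fell from 89.6, 118 and 92.7 to 53.7, 49.8 and 45.5 in lens and had 4185, 3866 and 3955 in WT and 4758, 3913 and 4893 in Qk-/- NLPCs, with an interaction of −1.18 ± 0.21 (adjusted p = 0.00379).

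The regulator Insig1 moved in opposite directions. Insig1, which retains the SREBP-SCAP complex in the endoplasmic reticulum and is itself an SREBP target, had 994, 1059 and 1001 in Ctrl and 296, 542 and 512 in Qk-iCKO lenses. Its NLPC values were 10143, 11323 and 10181 in WT and 12918, 16121 and 13691 in Qk-/- libraries. It fell in lens by −1.18 ± 0.23 (adjusted p = 0.0178) and rose in NLPCs by 0.43 ± 0.11 (adjusted p = 0.0371). Of the 9 measured genes of SREBP control and sterol uptake, Insig1 was the 1 called in lens (11.1%, against 3.89% of all genes lower). Insig1 and Insig2 rose in NLPCs (22.2%, against 5.95%). In the list of fatty acid synthesis and desaturation, with 14 measured, 2 fell in lens (14.3%, against 3.89%). In NLPCs 3 fell (21.4%, against 9.01%) and 1 rose (7.14%, against 5.95%). Scd2, a stearoyl-CoA desaturase, fell in both, by −1.17 ± 0.20 (adjusted p = 0.0106) and −0.75 ± 0.12 (adjusted p = 0.00765). Elovl6, which elongates palmitate, rose in NLPCs by 0.61 ± 0.09 (adjusted p = 0.00432) and had −0.68 in lens, with an interaction of −1.29 ± 0.24 (adjusted p = 0.00552).

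Several of these calls were lost without 1 library. In lens they were Fdps (any Ctrl, Qk-iCKO 1 or 3, adjusted p up to 0.137), Hsd17b7 (Ctrl 2, 0.0659), Insig1 (any Ctrl, up to 0.0692) and Scd2 (Ctrl 1, 0.0584). In NLPCs they were Mvd (any WT or Qk-/- 1, up to 0.18), Insig1 (any WT, Qk-/- 1 or 3, up to 0.185), Scd2 (WT 1 or 3, up to 0.0575) and Elovl6 (WT 3, 0.0536). With library totals alone the lens calls of Fdps, Lss, Hsd17b7 and Scd2 and the interaction of Hsd17b7 were lost.

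Genes that carry cholesterol out of cells and between organelles had an interaction call in 6 of 10 (60%), against 11.1% of all genes, and the calls of Abca1 and Soat1 among them were lost with 1 library left out. Of the 10, 3 rose in lens (30%, against 7.68%) and none fell (0 at an unadjusted p under 0.05, 0 by DESeq2). In NLPCs 1 rose (10%, against 5.95%) and 2 fell (20%, against 9.01%), and 5 of the 6 interaction calls were higher in lens. The medians were 0.57 in lens and −0.08 in NLPCs. Abca1, which exports cholesterol to apolipoprotein A-I, had 92.8, 61.5 and 112 in Ctrl and 407, 176 and 283 in Qk-iCKO lenses, a change of 1.70 ± 0.34 (adjusted p = 0.0192). It had 7252, 5274 and 6771 in WT and 6962, 7135 and 7179.8 in Qk-/- NLPCs, a change of 0.14 ± 0.12 (adjusted p = 0.5). Npc1, which exports cholesterol from lysosomes, fell in NLPCs by −1.21 ± 0.11 (adjusted p = 0.000578) and had 0.29 in lens. Soat1, which esterifies cholesterol, rose in lens by 0.83 ± 0.21 (adjusted p = 0.0421) and had −0.07 in NLPCs.

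Apoe, the main lipid carrier of the brain, had 589, 683 and 154 in Ctrl and 5725, 5326 and 783 in Qk-iCKO lenses. Among NLPCs it had 11482, 12129 and 10780.4 in WT and 2507, 1508 and 2641 in Qk-/- libraries. The Ctrl 3 and Qk-iCKO 3 lenses were both far below the other lenses of their groups, so the lens groups came apart by a wide margin only within a replicate number. The lens change was 3.05 ± 0.81 (adjusted p = 0.0504) and passed the test under the replicate block (adjusted p = 0.000565). The NLPC change was −2.37 ± 0.20 (adjusted p = 0.000553) and the interaction 5.42 ± 0.90 (adjusted p = 0.00289). The lens calls of Abca1 (Ctrl 1 or 2, adjusted p up to 0.0807) and Soat1 (any Ctrl, Qk-iCKO 1 or 3, up to 0.151) were lost with 1 library left out, as were their interactions (up to 0.0598 and 0.0924).

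Promoters of Hsd17b7 and Insig1, the genes of the synthesis and SREBP lists with a called interaction, are shown because both hold the E-box palindrome CACGTG, in capitals, upstream of the start, and both fell in lens and not in NLPCs. They are 100 bases each, 5′ to 3′ in the direction of transcription, from RefSeq promoters on GRCm38.p6, Hsd17b7 on the minus strand at chr1:169969296-169969395 and Insig1 on the plus strand at chr5:28071262-28071361.
Hsd17b7: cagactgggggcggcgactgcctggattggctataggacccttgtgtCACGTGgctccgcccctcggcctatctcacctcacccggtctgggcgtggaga
Insig1: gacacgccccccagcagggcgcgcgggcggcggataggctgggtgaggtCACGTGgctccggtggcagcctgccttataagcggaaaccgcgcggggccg
Promoters here run from 250 bases before to 50 after each RefSeq start and were searched on both strands. CACGTG stood in 3 of 17 promoters of the cholesterol genes (17.6%), against 7.15% of all 32851 promoters and 10.1% of those of genes tested in both systems. It stood in 12.1% of promoters of genes that fell in lens alone. Promoters of Sc5d, Dhcr7 and Scap in the same lists hold it too, and these genes had no interaction call. CCAAT stood in 14 of the 17 (82.4%), against 37.4% of all promoters, and the sterol regulatory element TCACNCCAC in 1 of the 17, that of Hmgcs1, against 1.24%. RefSeq promoters matched 14 of the 19 genes of the list and 8714 of the 11217 genes tested.

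In the lists of nuclear transport receptors and tubulins, members fell in both systems and none rose in either by edgeR's test. At an unadjusted p under 0.05, 1 transport gene and 1 tubulin had higher values in lens and 0 of either list in NLPCs, and DESeq2 called 1 tubulin higher in lens and 0 others. Nuclear transport receptors of the importin family carry proteins through nuclear pores with the GTPase Ran. Of 26 measured, 8 fell in lens (30.8%, against 3.89% of all genes) and 9 in NLPCs (34.6%, against 9.01%), with medians of −0.47 and −0.31. Of these, 3, Ipo5, Kpnb1 and Kpna1, fell in both. Ipo5, an importin that carries ribosomal proteins and histones, had 5059, 5272 and 5719.8 in Ctrl and 2425, 2699 and 2955 in Qk-iCKO lenses. The NLPCs had 5487, 5902 and 5824 in WT and 3890.2, 3207 and 3915 in Qk-/- libraries. It fell by −0.99 ± 0.16 (adjusted p = 0.00855) and −0.64 ± 0.10 (adjusted p = 0.00708), with an interaction of −0.35 ± 0.18 (adjusted p = 0.258). Kpnb1, importin beta 1, fell by −0.91 ± 0.16 (adjusted p = 0.0118) and −0.33 ± 0.08 (adjusted p = 0.0301).

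Other receptors moved in 1 system. Ipo8 (chr6:148770683-148832931), which carries Argonaute and SMAD proteins, had 1317, 1366 and 1433 in Ctrl and 437, 446 and 405 in Qk-iCKO lenses. It had 4397, 4198 and 4304 in WT and 4059, 3491 and 3967 in Qk-/- NLPCs. The lens groups were far apart and the NLPC change was −0.16 ± 0.09 (adjusted p = 0.294), and the interaction was −1.51 ± 0.15 (adjusted p = 9.94e-05). Kpna4, importin alpha 3, fell in lens by −0.93 ± 0.19 (adjusted p = 0.0212), with an interaction of −1.08 ± 0.22 (adjusted p = 0.00964). Xpot, which exports tRNA, fell in NLPCs by −0.47 ± 0.08 (adjusted p = 0.00892) and had 0.39 in lens, with an interaction of 0.86 ± 0.14 (adjusted p = 0.00315). Tnpo1, transportin 1, fell in NLPCs by −0.72 ± 0.08 (adjusted p = 0.00121), and its interaction, 0.60 ± 0.16 (adjusted p = 0.0407), was lost without any 1 of 11 of the 12 libraries (adjusted p up to 0.116) and with the replicate block (0.0672).

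Tubulins form the microtubules of spindles, axons and elongating fibre cells. Of 11 measured, 6 fell in lens (54.5%, against 3.89% of all genes) and 3 in NLPCs (27.3%, against 9.01%), with medians of −0.70 and −0.25. The interaction was called for 2, Tuba1a and Tubb4b, and not for the other 9. Tuba1a, the main alpha tubulin of growing neurons, had 9643, 10240.2 and 10920.4 in Ctrl and 2698, 2182 and 2545 in Qk-iCKO lenses. NLPC libraries had 107453, 130161 and 120865 in WT and 76431, 50044 and 88173 in Qk-/- libraries. It changed by −2.05 ± 0.17 (adjusted p = 0.000749) and −0.74 ± 0.19 (adjusted p = 0.0476), and the interaction was −1.31 ± 0.28 (adjusted p = 0.0122). Tubb4b, a widely used beta tubulin, fell in lens by −1.64 ± 0.16 (adjusted p = 0.0012) and had −0.25 in NLPCs, with an interaction of −1.39 ± 0.18 (adjusted p = 0.000625). Tubb2a fell in both, by −1.32 ± 0.16 (adjusted p = 0.00309) and −0.80 ± 0.20 (adjusted p = 0.0439). Tubulin genes are near-identical in parts, so reads can be split between them.

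Calls in these groups that ended without 1 library were the lens calls of Ipo5 (Ctrl 3, adjusted p = 0.0501), Kpnb1 (Ctrl 1 or 3, up to 0.0642) and Kpna4 (any Ctrl, up to 0.0848) and the NLPC calls of Ipo5 (WT 3, 0.0695), Kpnb1 (any WT, Qk-/- 1 or 3, up to 0.18), Xpot (WT 1 or 3, up to 0.0899), Tuba1a and Tubb2a (any WT or Qk-/- 1, up to 0.19 and 0.189). The NLPC call of Kpnb1 was also lost with the replicate block (adjusted p = 0.052).

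**Figure D4:**
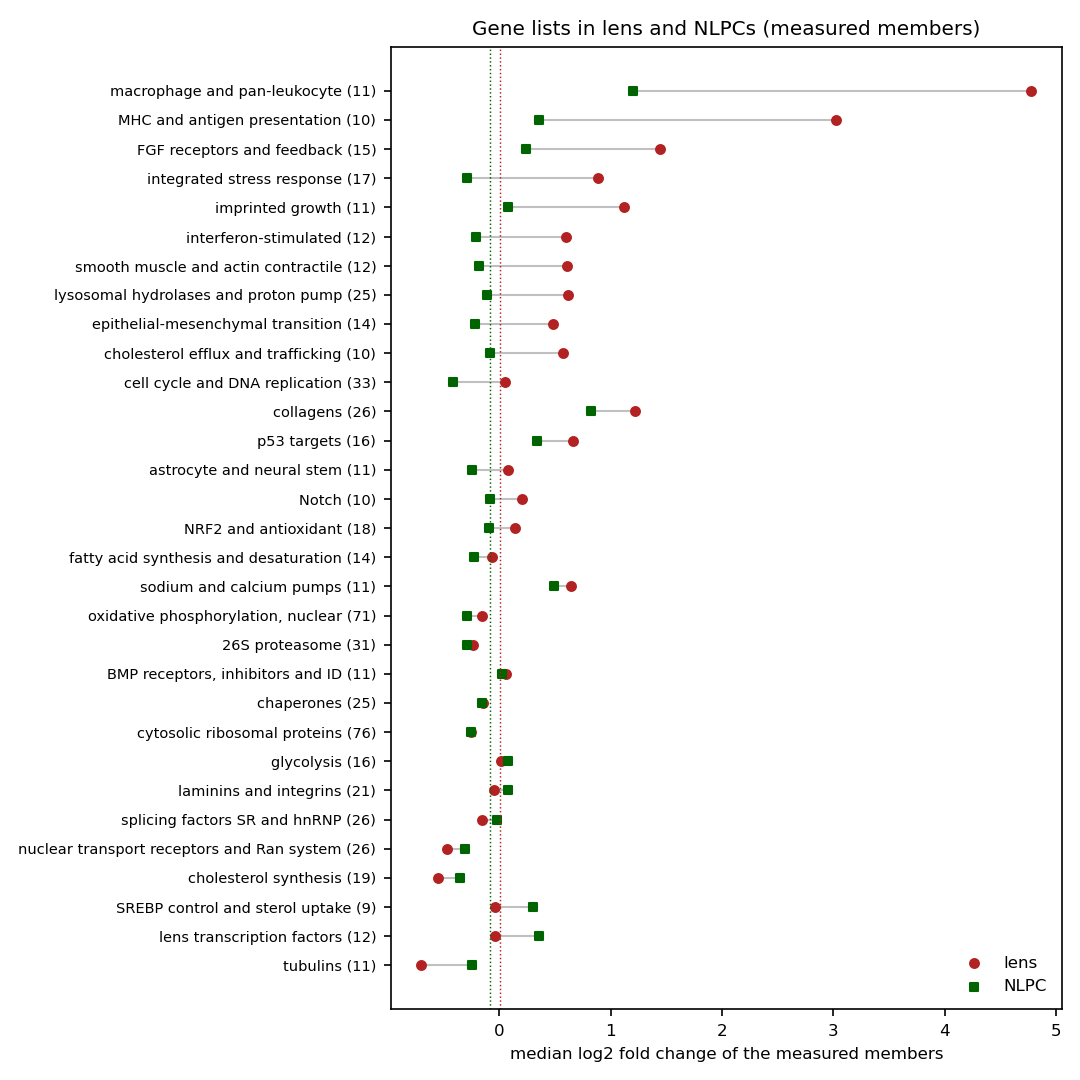
Median log2 fold change of each gene list with at least 8 measured members, in lens and in NLPCs, with dotted lines at the medians of all genes tested (0.0040 and −0.084). The macrophage and MHC lists, both partly set by the count filter, reach medians of 4.78 and 3.02 in lens. Nuclear transport receptors and tubulins lie below both lines, and the lysosome list lies above the lens line and near the NLPC line.

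The integrated stress response split the systems. In this response, kinases that sense amino acid shortage, unfolded protein or heme loss raise the translation of ATF4, which then turns on genes of amino acid supply and of stress. Of 17 measured genes, 6 rose in lens (35.3%, against 7.68% of all genes) and none fell. Chac1 and Trib3 could pass the lens filter only through the Qk-iCKO libraries, so the lens and interaction shares are partly set by the filter. In NLPCs none rose and 6 fell (35.3%, against 9.01%). The medians were 0.89 in lens and −0.29 in NLPCs, and 8 had an interaction call (47.1%, against 11.1%), all higher in lens. At an unadjusted p under 0.05, 1 gene was lower in lens and 1 higher in NLPCs, and DESeq2 called 0 of them. The summed macrophage markers given above were higher in the same lenses, and their part in this list was not tested. Chac1 (chr2:119351242-119354326), which degrades glutathione, had no read in any Ctrl lens and 169.7, 47.3 and 292 in Qk-iCKO lenses, at least 177-fold higher than the floor of 3 reads. In NLPCs it had 131, 94.4 and 109 in WT and 129, 177 and 167 in Qk-/- libraries, a change of 0.49 ± 0.29 (adjusted p = 0.317). Trib3, a pseudokinase that dampens ATF4, had 3 reads over the Ctrl lenses and 42.6, 19.9 and 83.1 in Qk-iCKO lenses, a ratio of 49.7 with a counting interval of 16.7 to 244. It had 137, 108 and 129 in WT and 137, 103 and 140.1 in Qk-/- NLPCs, a change of 0.03 ± 0.29 (adjusted p = 0.965).

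Of the transcription factors of this list, Atf3 (chr1:191170296-191183333) had 7.46, 0.917 and 9.71 in Ctrl and 174, 103 and 378 in Qk-iCKO lenses, a change of 5.15 ± 0.70 (adjusted p = 0.00485). Its NLPC values were 342, 395 and 398 in WT and 555, 422 and 647 in Qk-/- libraries, a change of 0.52 ± 0.19 (adjusted p = 0.127). Cebpb, a partner of ATF4, rose in lens by 3.45 ± 0.40 (adjusted p = 0.00243) and had 0.40 in NLPCs, with an interaction of 3.07 ± 0.50 (adjusted p = 0.00265). Atf4 itself had 1623, 1406 and 1975 in Ctrl and 2250.0, 2305 and 3672 in Qk-iCKO lenses, and 8272, 9280.1 and 8228 in WT and 6671, 5876 and 7836 in Qk-/- NLPCs. Its lens change of 0.72 ± 0.24 (adjusted p = 0.1) passed the test under the replicate block (adjusted p = 0.0359), and its interaction was 1.06 ± 0.28 (adjusted p = 0.0352).

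Aldh1l2, the mitochondrial enzyme of the folate cycle, moved oppositely. It had 7.46, 14.7 and 15 in Ctrl and 37.1, 71 and 136 in Qk-iCKO lenses and 6571, 6388 and 6559 in WT and 4106, 3539 and 4517 in Qk-/- NLPCs. Its changes were 2.68 ± 0.53 (adjusted p = 0.0185) and −0.68 ± 0.10 (adjusted p = 0.00583). The other NLPC decreases of the list were Psat1 and Phgdh of serine synthesis, the amino acid carriers Slc7a11 and Slc7a5, and Nupr1. Left-out libraries ended the lens calls of Aldh1l2 (any Ctrl, adjusted p up to 0.0803) and Atf5 (any Ctrl or Qk-iCKO 2, up to 0.119), the NLPC call of Aldh1l2 (WT 1 or 3, up to 0.0592) and the interactions of Atf4 (Ctrl 1 or 2, any WT, Qk-/- 1 or 2, up to 0.0977) and Atf5 (up to 0.0892). With TMM factors over all 12 libraries the interaction of Atf4 was lost too.

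Promoters of Chac1 and Atf3 are shown because both genes rose in lens without passing the test in NLPCs and both hold a match to the C/EBP-ATF response element TGATGNAA, a sequence that ATF4 binds with its C/EBP partners. The match, on the reverse strand here, is in capitals. Each stretch is 100 bases of the RefSeq promoter on GRCm38.p6, 5′ to 3′, Chac1 on the plus strand at chr2:119351002-119351101 and Atf3 on the minus strand at chr1:191183394-191183493.
Chac1: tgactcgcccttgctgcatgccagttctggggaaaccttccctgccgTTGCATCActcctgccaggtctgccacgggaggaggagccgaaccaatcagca
Atf3: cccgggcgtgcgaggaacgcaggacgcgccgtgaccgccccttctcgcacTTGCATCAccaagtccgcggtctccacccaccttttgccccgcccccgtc
Of the 17 promoters of the list, which come from 15 genes, 6 held the element (35.3%), against 3.97% of all promoters and 2.02% of those of genes tested in both systems. Among promoters of the genes that rose in lens alone, 16 of 314 held it (5.1%). This motif was added after the values had been seen, and a match is not a bound site.

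Lysosomes degrade proteins and lipids in an acid lumen. Of 25 genes of lysosomal enzymes, membrane proteins and the proton pump, 10 rose in lens (40%, against 7.68% of all genes) and none fell. In NLPCs none rose and 6 fell (24%, against 9.01%), and 12 had an interaction call (48%, against 11.1%), all higher in lens. At an unadjusted p under 0.05, 0 were lower in lens and 4 higher in NLPCs, and DESeq2 called 0 and 2. The medians were 0.62 in lens and −0.11 in NLPCs, the latter close to the −0.084 of all genes. Macrophages are rich in lysosomes, and the part of the macrophage markers that rose in the same lenses was not tested. Ctsb, cathepsin B, had 831, 788 and 771 in Ctrl and 2598, 1955 and 2036 in Qk-iCKO lenses. Among NLPCs it had 38225, 43507 and 40465 in WT and 25744, 18909.8 and 29223 in Qk-/- libraries. No library of one group lay within the range of the other in either system, and the changes were 1.46 ± 0.16 (adjusted p = 0.00206) and −0.73 ± 0.15 (adjusted p = 0.0228).

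The membrane proteins Lamp1 and Lamp2, which line the lysosome, split between the systems. Lamp2, on the X chromosome, had 902, 859 and 877 in Ctrl and 1716, 1745 and 1504 in Qk-iCKO lenses, a change of 0.91 ± 0.13 (adjusted p = 0.00643), against −0.13 in NLPCs. Lamp1 had 51276, 57667 and 54815 in WT and 27675, 22239 and 30183 in Qk-/- NLPCs, a change of −1.03 ± 0.12 (adjusted p = 0.00202), against 0.28 in lens. Ctsd, cathepsin D, had 3364, 2901 and 3774 in Ctrl and 6385, 6829 and 5340.4 in Qk-iCKO lenses, a change of 0.89 ± 0.18 (adjusted p = 0.0209), and −0.11 in NLPCs. The lens call of Ctsd (any Ctrl or Qk-iCKO 2, adjusted p up to 0.106), the NLPC call of Ctsb (any WT or Qk-/- 1, up to 0.12) and the interaction of Ctsd (Ctrl 1 or 2, WT 2 or 3, 0.061) were lost with 1 library left out.

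The promoter of Ctsd is shown because its interaction was called and because it holds CACGTG, in capitals, the core of the element bound by the lysosome regulator TFEB. The stretch is 100 bases of the RefSeq promoter on GRCm38.p6, 5′ to 3′, on the minus strand at chr7:142387878-142387977.
Ctsd: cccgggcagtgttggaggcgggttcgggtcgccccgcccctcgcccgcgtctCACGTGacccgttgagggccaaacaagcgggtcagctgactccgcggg
CACGTG stood in 9 of 23 promoters of the list (39.1%), which come from 18 of its 25 genes, against 10.1% of promoters of genes tested in both systems.

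Macrophage genes rose in lens together with the lists above. Of the 22 genes of the macrophage and leukocyte list, 11 passed the count filter in both systems. All 11 rose in lens, with a median of 4.78. Genes with next to no reads in Ctrl can pass the lens filter only through the Qk-iCKO libraries. That count and median are therefore partly set by the filter. None of the 11 was called in NLPCs by edgeR (1 higher at an unadjusted p under 0.05, 1 by DESeq2), where the median was 1.2. In bulk RNA, more cells of a type and more RNA per cell cannot be told apart. The part of macrophage RNA in the lens increases of immune genes was not tested. The interaction passed the test for 5 of the 11 (45.5%, against 11.1% of all genes), Cd68, Itgb2, Fcer1g, Lyz2 and Cd163. This share is over the same 11 genes and is also partly set by the filter.

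Cd68, a lysosomal membrane protein of macrophages, had 2.13, 1.83 and 2.65 in Ctrl and 196, 67.2 and 201 in Qk-iCKO lenses, a change of 6.05 ± 0.58 (adjusted p = 0.0012). The NLPCs had 219, 265 and 226 in WT and 317, 339 and 296 in Qk-/- libraries, a change of 0.42 ± 0.18 (adjusted p = 0.191). Cd163, a scavenger receptor of tissue macrophages, went from 17.1, 12.8 and 7.06 to 273, 419.7 and 239 in lens, a change of 4.66 ± 0.35 (adjusted p = 0.000554), with an interaction of 4.23 ± 0.47 (adjusted p = 0.00026). Lyz2, lysozyme, rose in lens by 3.99 ± 0.41 (adjusted p = 0.00157). Itgb2, the beta chain of the leukocyte integrins, had 64.7, 17.9 and 35.3 in WT and 72.6, 227 and 104 in Qk-/- NLPCs, and its interaction of 4.39 ± 1.10 (adjusted p = 0.0277) was lost without any Ctrl lens, Qk-iCKO 1, WT 1, Qk-/- 1 or Qk-/- 3 (adjusted p up to 0.0736) and with the replicate block (0.0531).

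Complement and antigen presentation rose in lens and in part in NLPCs. Of 14 complement genes, 6 passed the count filter in both systems, with the limit given for the macrophage list. All 6 rose in lens, and 2, C1s1 and C3, rose in NLPCs (33.3%, against 5.95% of all genes). C4b, a component of the classical pathway, had 28.8, 6.42 and 13.2 in Ctrl and 971, 1247 and 139 in Qk-iCKO lenses, with Qk-iCKO 3 the lowest, and changed by 5.63 ± 0.91 (adjusted p = 0.00878) in lens and −0.06 ± 0.20 (adjusted p = 0.871) in NLPCs. Of 10 genes of MHC and antigen presentation, 8 rose in lens (80%, against 7.68%) and 4 in NLPCs (40%, against 5.95%). The same filter limit holds for this list, since Cd74 had next to no reads in the Ctrl lenses. None fell in either (0 at an unadjusted p under 0.05, 0 by DESeq2). An interaction call higher in lens was made for 9 (90%, against 7.71%), and the medians were 3.02 in lens and 0.35 in NLPCs. B2m (chr2:122147687-122153082), the light chain of MHC class I, had 55.4, 42.2 and 49.5 in Ctrl and 456, 508 and 401 in Qk-iCKO lenses, a change of 3.21 ± 0.18 (adjusted p = 0.000173). It had 68223, 66677 and 64322 in WT and 65065, 37879 and 65112 in Qk-/- NLPCs, which overlap.

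The class I heavy chains H2-K1 and H2-D1 rose in lens by 2.57 ± 0.19 (adjusted p = 0.000554) and 3.18 ± 0.18 (adjusted p = 0.000178) and had 0.34 and 0.20 in NLPCs. Reads of these near-identical genes can be split between them. Tap2, a peptide transporter for class I, rose in both, by 2.86 ± 0.54 (adjusted p = 0.0157) and 0.50 ± 0.12 (adjusted p = 0.0408), with an interaction of 2.41 ± 0.53 (adjusted p = 0.0134). Cd74, the invariant chain of MHC class II, had 1.07, 4.59 and 1.77 in Ctrl and 168, 250.3 and 514 in Qk-iCKO lenses and 4.73, 12.8 and 4.71 in WT and 20.3, 51.6 and 58.2 in Qk-/- NLPCs, changes of 6.87 ± 0.64 (adjusted p = 0.00108) and 2.56 ± 0.84 (adjusted p = 0.0957). Tap2 lost its lens call without any Ctrl (adjusted p up to 0.0688) and its NLPC call without any WT, Qk-/- 1 or Qk-/- 3 (up to 0.165) or with the replicate block (0.0509), and Cd74 its interaction without Ctrl 1, Ctrl 3 or WT 2 (up to 0.0631). Of 12 interferon-stimulated genes, 2 rose (16.7%, against 7.68%) and 1 fell (8.33%, against 3.89%) in lens, and 3 fell in NLPCs (25%, against 9.01%).

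Matrix genes differed member by member. Of 14 genes linked to epithelial-mesenchymal transition, 3 rose in lens (21.4%, against 7.68% of all genes). In NLPCs 1 rose (7.14%, against 5.95%) and 6 fell (42.9%, against 9.01%). An interaction call was made for 7 (50%, against 11.1%), all higher in lens. The lens and interaction shares carry the limit given for the macrophage list, since Spp1 had no read in the Ctrl lenses. Tnc (chr4:63959785-64047015), tenascin C, a matrix glycoprotein of stem cell niches and wounds, had 3.2, 5.5 and 1.77 in Ctrl and 15, 18.7 and 31.2 in Qk-iCKO lenses. NLPC libraries had 17372, 17990.2 and 18313 in WT and 2751, 2112 and 3004 in Qk-/- libraries. Its changes of 2.57 ± 0.51 (adjusted p = 0.0189) and −2.77 ± 0.14 (adjusted p = 0.000142) gave an interaction of 5.34 ± 0.44 (adjusted p = 3.51e-05), and the lens call was lost without Ctrl 1 or 3 (adjusted p up to 0.0925). Fn1, fibronectin, had 20.3, 7.34 and 12.4 in Ctrl and 880.3, 521 and 1341 in Qk-iCKO lenses, a change of 6.11 ± 0.49 (adjusted p = 0.000612). It had 12764, 4854 and 12356 in WT and 17103, 18148 and 14991 in Qk-/- NLPCs, a change of 0.74 ± 0.32 (adjusted p = 0.181).

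Of 26 collagen genes, 5 rose (19.2%, against 7.68% of all genes) and 1 fell (3.85%, against 3.89%) in lens. In NLPCs 6 rose (23.1%, against 5.95%) and 4 fell (15.4%, against 9.01%). Col4a1 and Col4a2, the chains of the main network of the lens capsule, had lower log2 fold changes in lens than in NLPCs, with interactions of −1.35 ± 0.27 (adjusted p = 0.00811) and −1.44 ± 0.30 (adjusted p = 0.0102). Col4a1 had 32305, 26589 and 32099.6 in Ctrl and 12537, 15649.9 and 18761 in Qk-iCKO lenses, a change of −0.95 ± 0.22 (adjusted p = 0.0333), and 0.40 in NLPCs. Col4a2 had 753, 389 and 634 in WT and 1119.9, 1355 and 1136 in Qk-/- NLPCs, a change of 1.02 ± 0.23 (adjusted p = 0.0292), and −0.42 in lens. Col4a5, an X-linked chain of another type IV network, fell in NLPCs from 4848, 5489 and 5223 to 1813, 1865 and 1988, a change of −1.46 ± 0.09 (adjusted p = 0.000242), and had −0.10 in lens. Col5a2, a fibril collagen, rose in lens by 2.39 ± 0.35 (adjusted p = 0.00628) and fell in NLPCs by −1.47 ± 0.38 (adjusted p = 0.0464).

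Of 21 laminins and integrins, 5 rose (23.8%, against 7.68% of all genes) and 2 fell (9.52%, against 3.89%) in lens. In NLPCs 2 rose (9.52%, against 5.95%) and 3 fell (14.3%, against 9.01%), and 6 had an interaction call (28.6%, against 11.1%). Itga7, a laminin-binding integrin, had 9.6, 7.34 and 2.65 in Ctrl and 76.6, 54.8 and 19.5 in Qk-iCKO lenses and 211, 198 and 287 in WT and 36.8, 60.8 and 78.3 in Qk-/- NLPCs. It changed by 2.96 ± 0.62 (adjusted p = 0.0219) and −1.98 ± 0.36 (adjusted p = 0.0121), with an interaction of 4.95 ± 0.77 (adjusted p = 0.00202). Calls lost with 1 library left out were those of Col4a1 in lens (any Ctrl or Qk-iCKO 2, adjusted p up to 0.131), Itga7 in lens (any Ctrl, Qk-iCKO 1 or 2, 0.0787) and in NLPCs (WT 1 or 3, 0.103), Col4a2 in NLPCs (WT 3, Qk-/- 1 or 3, 0.129) and Col5a2 in NLPCs (any WT, Qk-/- 1 or 3, 0.18).

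Astrocyte and neural stem genes were called in both directions. Of 11 astrocyte and neural stem genes, 1 rose (9.09%, against 5.95% of all genes) and 3 fell (27.3%, against 9.01%) in NLPCs. In lens 1 rose (9.09%, against 7.68%) and 1 fell (9.09%, against 3.89%). Slc1a3, the glutamate transporter GLAST, had 98418, 102156 and 92799.5 in WT and 33799.7, 27199 and 31676 in Qk-/- NLPCs, a change of −1.66 ± 0.10 (adjusted p = 0.000242). In lens it had 20.3, 48.6 and 1.77 in Ctrl and 102, 146 and 2.6 in Qk-iCKO, with both lenses numbered 3 close to 0. Its interaction of 3.51 ± 1.07 (adjusted p = 0.0623) passed the test with the replicate block (adjusted p = 0.000253), as did the lens change (0.00976). Aqp4, the water channel of astrocytes, rose in NLPCs by 0.74 ± 0.08 (adjusted p = 0.0012), with 790.5 to 877.8 CPM in WT and 1363 to 1465 CPM in Qk-/- libraries, and had 0.34 in lens, and it is named after its values had been seen. Nes, nestin, whose promoter drives the Cre used here, had 88.5, 83.5 and 60.9 in Ctrl and 444, 431 and 182 in Qk-iCKO lenses, a change of 2.19 ± 0.35 (adjusted p = 0.00871), and −0.13 in NLPCs.

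Of the 4 measured myelin and oligodendrocyte genes, 2 rose in lens (50%, against 7.68% of all genes) and 3 fell in NLPCs (75%, against 9.01%). Cnp, a myelin enzyme, had 5.33, 11.9 and 11.5 in Ctrl and 33.9, 48.6 and 26 in Qk-iCKO lenses, a change of 1.89 ± 0.40 (adjusted p = 0.0243), and −0.70 ± 0.18 (adjusted p = 0.042) in NLPCs. The calls of Cnp were lost in lens without any Ctrl or Qk-iCKO 2 (adjusted p up to 0.0864) and in NLPCs without any WT or Qk-/- 1 (up to 0.19).

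Of 5 measured neuronal genes, 3 rose in NLPCs (60%, against 5.95% of all genes) and none was called in lens (0 at an unadjusted p under 0.05, 0 by DESeq2). Snap25 (chr2:136713439-136782428), a SNARE protein of synaptic vesicle release, had 8.68, 26.8 and 8.64 in WT and 994, 638 and 785 in Qk-/- NLPCs, a change of 5.87 ± 0.44 (adjusted p = 0.000331). In lens it had 13.9, 100.0 and 19.4 in Ctrl and 29.2, 13.7 and 5.2 in Qk-iCKO, with Ctrl 2 the highest, and the interaction was −7.24 ± 1.06 (adjusted p = 0.00138). Summed over 4 neuronal markers, the NLPC libraries had 10.4 to 15.8 CPM in WT and 38.8 to 51.3 CPM in Qk-/-. None of the 5 photoreceptor and 4 pigment cell genes was called in either system by edgeR, with 2 pigment cell genes higher in lens at an unadjusted p under 0.05, 1 of them by DESeq2, and 0 others. Photoreceptor markers summed to 1.58 to 482 CPM in the Ctrl lenses and 11.9 to 110.5 CPM in the Qk-iCKO lenses, pigment cell markers to 3.1 to 6.54 CPM and 6.2 to 194.5 CPM, and endothelial markers to 1.64 to 4.02 CPM and 6.39 to 12.9 CPM. Their part in the lens changes was not tested.

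FGF drives lens fibre differentiation and was in the medium of both NLPC groups, and the list holds receptors, feedback inhibitors and immediate early targets. Of 15 measured, 4 rose (26.7%, against 7.68% of all genes) and 1 fell (6.67%, against 3.89%) in lens. In NLPCs 6 rose (40%, against 5.95%) and 3 fell (20%, against 9.01%), and 7 had an interaction call (46.7%, against 11.1%). Fos (chr12:85473890-85477274), the AP-1 subunit, had 4.26, 4.59 and 4.42 in Ctrl and 317, 132 and 327 in Qk-iCKO lenses. In NLPCs it had 1059.5, 1150.1 and 1003 in WT and 479, 529 and 448 in Qk-/- libraries. Its changes of 5.83 ± 0.46 (adjusted p = 0.000612) and −1.14 ± 0.13 (adjusted p = 0.00146) gave an interaction of 7.0 ± 0.47 (adjusted p = 7e-06), and it kept all 3 calls with each library left out. Egr1, another immediate early factor, rose in lens by 3.97 ± 0.80 (adjusted p = 0.0194) and had −0.61 in NLPCs, and Etv4, an ETS factor downstream of FGF receptors, rose in lens by 3.69 ± 0.65 (adjusted p = 0.0122) and had −0.47 in NLPCs.

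Feedback genes differed from each other. Spry1, which blocks receptor signals to ERK, had 1926, 1984 and 2462 in WT and 3779.8, 3226 and 4078 in Qk-/- NLPCs, a change of 0.80 ± 0.13 (adjusted p = 0.00899), and 368, 199 and 237 in Ctrl and 178, 141 and 136 in Qk-iCKO lenses. The lens change of −0.81 ± 0.25 (adjusted p = 0.0788) passed with the replicate block (adjusted p = 0.0194), and the interaction was −1.61 ± 0.30 (adjusted p = 0.00559). Dusp6, the ERK phosphatase, rose in both, by 2.78 ± 0.60 (adjusted p = 0.0244) and 0.63 ± 0.16 (adjusted p = 0.0413), with an interaction of 2.15 ± 0.63 (adjusted p = 0.0528) that passed with the block (0.00218). Etv5 rose in NLPCs by 1.11 ± 0.15 (adjusted p = 0.00376) and had 0.17 in lens. Calls lost with 1 library left out were those of Egr1, Etv4 (any Ctrl, adjusted p up to 0.0872 and 0.0609) and Dusp6 (any Ctrl, Qk-iCKO 1 or 2, 0.102) in lens, Spry1 (WT 1, WT 2 or Qk-/- 1, 0.0797) and Dusp6 (any WT, Qk-/- 1 or 3, 0.191) in NLPCs and the interaction of Etv5 (any Ctrl or WT among others, 0.124).

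Notch genes beside Hes5 shared 1 decrease. Of 10 measured, 2 fell in lens (20%, against 3.89% of all genes). In NLPCs 1 rose (10%, against 5.95%) and 3 fell (30%, against 9.01%), and 3 had an interaction call (30%, against 11.1%). Hey1, a Notch effector, fell in both, from 233, 245 and 293 to 171, 141 and 165 in lens and from 5484, 6444 and 5875 to 3173, 3111 and 3866 in NLPCs, by −0.69 ± 0.15 (adjusted p = 0.0282) and −0.81 ± 0.12 (adjusted p = 0.0044). Jag1, a Notch ligand, rose in NLPCs from 871, 763 and 857 to 1661, 1803 and 1537, a change of 1.0 ± 0.12 (adjusted p = 0.002), and had −0.19 in lens. Lfng, which glycosylates Notch, fell in lens by −0.88 ± 0.14 (adjusted p = 0.00901) and had 0.17 in NLPCs. Hey1 lost its lens call without any Ctrl, Qk-iCKO 2 or 3 (adjusted p up to 0.107), Lfng its lens call without Ctrl 1 (0.0506) and its interaction without any 1 of 11 libraries (0.109). Of 11 genes of BMP receptors, inhibitors and ID factors, 1 fell in lens (9.09%, against 3.89%). In NLPCs 3 rose (27.3%, against 5.95%) and 1 fell (9.09%, against 9.01%).

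Cell cycle genes copy DNA and carry cells through mitosis. Of 33 measured, 12 fell (36.4%, against 9.01% of all genes) and 1 rose (3.03%, against 5.95%) in NLPCs, with a median of −0.41. In lens 1 fell (3.03%, against 3.89%), and the median was 0.05. The interaction was called for 5 of the 33, 15.2% against 11.1% of all genes. Rrm2, a subunit of ribonucleotide reductase, had 1212, 1252 and 1366 in WT and 779, 531 and 519 in Qk-/- NLPCs, a change of −1.06 ± 0.18 (adjusted p = 0.00836), and 0.49 in lens. Foxm1, a mitotic transcription factor, and Ccnb1, cyclin B1, fell in NLPCs by −0.62 ± 0.13 (adjusted p = 0.0242) and −0.58 ± 0.15 (adjusted p = 0.0449). Ccnd1, cyclin D1, fell in lens from 807, 756 and 762 to 496, 455 and 381, a change of −0.80 ± 0.14 (adjusted p = 0.0129), and had 0.27 in NLPCs. Rrm2 lost its NLPC call without WT 3 (adjusted p = 0.0633), Foxm1 and Ccnb1 theirs without any WT or Qk-/- 1 and Ccnb1 also without Qk-/- 3 (up to 0.149 and 0.151), with Ccnb1 also lost under the replicate block (0.0512), and Ccnd1 its lens call without any Ctrl (up to 0.0659). The interactions of Foxm1 and Ccnb1 were lost with any of 9 libraries left out (up to 0.123 and 0.131).

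Of 16 p53 target genes, 4 rose in lens (25%, against 7.68% of all genes). In NLPCs 5 rose (31.2%, against 5.95%) and 1 fell (6.25%, against 9.01%), and 3 had an interaction call higher in lens (18.8%, against 7.71%). Cdkn1a, the cyclin kinase inhibitor p21, had 3.2, 2.75 and 2.65 in Ctrl and 113, 34.9 and 65 in Qk-iCKO lenses, a change of 4.59 ± 0.55 (adjusted p = 0.00288). Its NLPC values were 979.8, 1137 and 1218 in WT and 1706, 1172 and 1719 in Qk-/- libraries, a change of 0.47 ± 0.17 (adjusted p = 0.132). Btg2, an antiproliferative gene, rose in lens by 0.95 ± 0.23 (adjusted p = 0.0359) and fell in NLPCs by −0.65 ± 0.14 (adjusted p = 0.0259), and both calls were lost with 1 library left out (any Ctrl, Qk-iCKO 1 or 3 in lens, adjusted p up to 0.133, and any WT, Qk-/- 1 or 3 in NLPCs, up to 0.121).

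Lens transcription factors differed for 3 of 12 genes (25%, against 11.1% of all genes). Maf, which drives crystallin genes, rose in NLPCs from 2054, 1469 and 1814 to 4172, 6919.5 and 3254, a change of 1.42 ± 0.27 (adjusted p = 0.0142), and had −0.25 in lens. Meis2, a partner of Pax6, fell in lens from 291, 288 and 299 to 153, 220.4 and 131, a change of −0.80 ± 0.20 (adjusted p = 0.0425), and had 0.33 in NLPCs, with an interaction of −1.14 ± 0.22 (adjusted p = 0.00775). Meis2 lost its lens call without any Ctrl, Qk-iCKO 1 or 3 (adjusted p up to 0.128), and Maf its NLPC call without any WT (0.0818) and its interaction without any of 5 libraries (0.064). Of 25 chaperones, 2 rose in lens, Hspa1a and Hspa1b (8%, near the 7.68% of all genes), and 3 fell in NLPCs (12%, against 9.01%). The interaction was called for 4 of the 25 (16%, against 11.1%), all higher in lens. Of 18 genes of the NRF2 and antioxidant list, 3 rose (16.7%) and 2 fell (11.1%, against 3.89%) in lens. In NLPCs 1 rose (5.56%, against 5.95%) and 4 fell (22.2%).

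Lists of basic functions had no call in lens. Of 31 proteasome subunits, none was called in lens (3 lower at an unadjusted p under 0.05, 0 by DESeq2). In NLPCs 3 fell (9.68%, near the 9.01% of all genes), and the medians were −0.23 in lens and −0.29 in NLPCs. Of 76 cytosolic ribosomal proteins, none was called in lens (6 lower at an unadjusted p, 2 by DESeq2) and 2 fell in NLPCs (2.63%). Their medians were −0.26 and −0.25. Of 71 nuclear genes of oxidative phosphorylation, none was called in lens (1 higher and 2 lower at an unadjusted p, 0 by DESeq2). In NLPCs 9 of the 71 fell (12.7%), and the medians were −0.16 in lens and −0.29 in NLPCs. Of 26 splicing factors, none was called in lens (8 lower at an unadjusted p, 0 by DESeq2) and 3 fell in NLPCs (11.5%). By edgeR's test, the interaction was called for none of the proteasome (0 at an unadjusted p, 0 by DESeq2), ribosomal (2 and 2) and oxidative phosphorylation genes (6 and 1) and for 1 splicing factor, Hnrnpf.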

How the data were processed

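RNA-seq gene counts of 12 mouse libraries, 3 in each of 4 groups, were analysed; the human HLE-B3 libraries of the series were not used here. The deposited values are raw read counts per gene that the authors made from stranded TruSeq libraries. Per the labels, the submitters' notes name STAR 2.6.1b, HISAT2 2.0.4, HTSeq 0.11.0 and featureCounts with mm10, and the study's methods give STAR and HTSeq, without saying which made which table. Counts of overlapping or near-identical genes depend on that choice.

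Symbols on 1 row of each mouse table were joined. Each system was fitted with edgeR 4.0.16 in R 4.3.3 (filterByExpr with a minimum count of 10 and total of 15, TMM factors, quasi-likelihood test, Benjamini-Hochberg, threshold 0.05), and the interaction was fitted over all 12 libraries with TMM factors computed within each system. Fits were tested on simulated data. Fold changes are log2 with SE. A group at 0 was set to a floor of 3 counts over the group, and a group with 1 to 3 counts is given as a ratio with an exact 95% interval, which covers counting error only. The biological coefficient of variation was 0.26 in lens, 0.411 in NLPCs and 0.295 jointly. Coordinates are those of RefSeq genes on GRCm38.p6.

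Deviations of same-numbered libraries from their group means correlated at 0.241, 0.134 and 0.521 in lens and 0.138, 0.375 and 0.163 in NLPCs. Differently numbered pairs ranged from −0.389 to 0.270 in lens and from −0.342 to 0.257 in NLPCs, so some lay above same-numbered ones. A fit with the replicate number as a block is therefore an alternative only, given where it changes a call. Genes were named by rule: groups not overlapping where called, a mean of at least 20 normalized reads in the higher group of each system, the largest changes in each class (under 0.5 in the other system for genes of 1 system), and list members with an interaction call or among the largest changes. The genes, lists and tests were chosen with earlier results of these data known. Some members of the lists enter the counts and medians, and their own values are not reported here.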

Additional observations from a re-analysis of the deposited data

Results flagged for a closer look

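The deletion effect differed between lens and NLPC, by the interaction term of the joint edgeR fit, for 89 of the genes named above. The interaction can also carry the unlike controls and drug exposure of the systems. Values are the lens log2 fold change minus the NLPC log2 fold change, each with an adjusted p under 0.05, and those of genes with 3 or fewer counts in a group depend on the prior count. Spp1, Chac1 and Abcg1, with no count in a group, are given by their adjusted p of 0.00826, 0.00124 and 0.0149. Groups of 3 libraries were too small for a test of single outlying libraries.

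Genes that rose in lens and fell in NLPCs gave 9.46 for Lcn2, 8.53 for Acss1, 8.09 for Emp1, 7.66 for Serpina3n and 7.43 for Cdh13. The reverse group gave −5.72 for Ogn, −4.18 for Fn3k, −3.54 for Pex5l, −3.17 for Rgs8 and −3.04 for Slc24a2. Changes in lens alone gave 6.99 for Ccl7, 6.29 for Fosb, −4.44 for Rgs4, −2.55 for Rapgef5, −1.83 for Dusp15 and −2.31 for Zswim5. Changes in NLPCs alone gave −3.59 for Iqsec3, −2.82 for Fzd6, −2.45 for Stat5a, −2.12 for Dnajc6, 3.33 for Plxdc2, 2.09 for Bche, 2.10 for Ttyh1 and 2.00 for Tenm3. Pea15a fell in both and differed by 1.40, and Qk differed by −0.72.

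Sterol and lipid genes differed by −1.18 (Hsd17b7), −1.62 (Insig1), −1.29 (Elovl6), 1.57 (Abca1), 5.42 (Apoe), 1.5 (Npc1) and 0.90 (Soat1). Nuclear transport receptors and tubulins differed by −1.51 (Ipo8), −1.08 (Kpna4), 0.60 (Tnpo1), 0.86 (Xpot), −1.31 (Tuba1a) and −1.39 (Tubb4b). Stress response genes differed by 5.56 (Trib3), 4.65 (Atf3), 1.06 (Atf4), 1.35 (Atf5), 3.33 (Aldh1l2) and 3.07 (Cebpb), and lysosomal genes by 2.19 (Ctsb), 1.0 (Ctsd), 1.32 (Lamp1) and 1.04 (Lamp2).

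Immune genes differed by 5.68 (Cd68), 4.23 (Cd163), 4.39 (Itgb2), 3.79 (Lyz2), 6.08 (C3), 5.71 (C4b), 3.46 (B2m), 2.23 (H2-K1), 2.99 (H2-D1), 4.30 (Cd74) and 2.41 (Tap2). Matrix genes differed by 5.38 (Fn1), 5.34 (Tnc), −1.35 (Col4a1), −1.44 (Col4a2), 1.35 (Col4a5), 3.88 (Col5a2) and 4.95 (Itga7). Neural and glial genes differed by 2.32 (Nes), 2.58 (Cnp) and −7.24 (Snap25). Signaling, cell cycle and lens factors differed by 7.0 (Fos), 4.62 (Egr1), 4.24 (Etv4), −0.94 (Etv5), −1.61 (Spry1), −1.2 (Jag1), −1.06 (Lfng), 4.18 (Cdkn1a), 1.03 (Plk2), 1.60 (Btg2), 1.55 (Rrm2), 1.47 (Foxm1), 1.39 (Ccnb1), −1.07 (Ccnd1), −1.67 (Maf) and −1.14 (Meis2).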

How the results depend on the processing

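Over 238 calls of named genes, none changed direction under any alternative run. DESeq2 and TMM without crystallins kept every call they could test, RLE factors lost 1, a minimum of 10 counts in every library lost 1 of 163, requiring at least 1 count in place of the count filter lost 11, and totals alone lost 37. TMM over all 12 libraries lost 5 and limma-voom with weights by system 9 of 89 interactions, effects from the joint fit lost 13 of 149, and leaving out both libraries that stand apart lost 14. The fit with the replicate number as a block lost 11, all given above with their values, and changed no other call apart from the gains named there. The counts moved more. With totals alone 118 genes fell in lens and 156 were lower in lens by the interaction, and the classes held 7 (together lower), 43 (lens higher, NLPC lower), 12 (lens lower, NLPC higher), 35 (lens only lower), 34 and 100 genes (NLPC only higher and lower). With every gene of at least 1 count, 1904 rose in lens and 1452 in NLPCs, and 229, 89 and 141 were together higher, together lower and lens higher with NLPC lower. With 10 counts in every library 610 rose in lens. DESeq2 called 1890 higher and 1951 lower in NLPCs, 1094 lower by the interaction, 237 and 129 together, 123 and 72 opposite, 214 lens only lower, and 256 and 262 NLPC only. Effects from the joint fit gave 92 together lower. Without Qk-iCKO 1 and Qk-/- 2, 1728 rose and 2069 fell in NLPCs, with 89 together lower, 81 lens lower with NLPC higher, and 145 and 268 NLPC only. The cause of these shifts was not tested.

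With each library left out in turn, 437 (without Ctrl 1) to 1298 genes rose and 144 (without Ctrl 1) to 479 fell in lens, 344 (without WT 3) to 1728 (without Qk-/- 2) rose and 337 (without WT 3) to 2069 (without Qk-/- 2) fell in NLPCs, and 679 to 1238 were higher and 238 to 470 lower by the interaction (lowest without WT 3). The classes held 47 to 193 together higher and 17 to 83 together lower, 16 to 106 lens higher with NLPC lower and 12 to 70 the reverse, 130 to 376 and 42 to 120 lens only, and 35 to 99 and 64 to 199 NLPC only. Of the named calls, 75 of 89 interactions, 45 of 81 lens effects and 33 of 68 NLPC effects were kept with each library left out. Some interactions that were not called changed sign: Klhl5 (−0.057 with TMM over all 12 libraries, −0.11 by DESeq2, −0.014 by limma-voom, −0.083 to 0.21 with 1 library left out), Mycl (−0.052, −0.082 and −0.046, and −0.26 to 0.28), Mgp (0.11 with totals alone, 0.37 by limma-voom, 0.26 with the block, 0.54 without both libraries that stand apart, and −0.49 to 1.12), Hey1 (−0.015 by DESeq2 and −0.0037 without both libraries) and Pear1 (−0.027 to 1.15). Lens libraries hold fewer counts than NLPC libraries, most of them of crystallins, and what this depth does to the calls was not tested.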

Other observations

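Imprinted genes regulate fetal growth and many are turned down after birth. Of 11 measured, Meg3, Peg3, Plagl1, Nnat and Igf2r rose in lens (45.5%, against 7.68% of all genes), with a median log2 fold change of 1.12. None fell in lens (0 at an unadjusted p under 0.05, 0 by DESeq2). In NLPCs 2, Mest and Igf2r, rose (18.2%, against 5.95%) and 1, Sgce, fell (9.09%, against 9.01%), with a median of 0.07. The interaction was called for 3 of the 11 (27.3%, against 11.1%), all higher in lens.

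Of 12 measured genes of smooth muscle and contractile actin, 2 rose in lens (16.7%, against 7.68% of all genes). In NLPCs 1 rose (8.33%, against 5.95%) and 1 fell (8.33%, against 9.01%). Of 4 endothelial and mural genes, Pecam1 and Tek rose in lens (50%, against 7.68%) and none was called in NLPCs (0 at an unadjusted p, 0 by DESeq2). Of 4 immunoproteasome genes, Psmb8 and Psmb10 rose in lens (50%, against 7.68%), and Psmb10 fell in NLPCs (25%, against 9.01%). Psmb8 had 3 reads over the Ctrl lenses, and Pecam1 had 0.447 to 0.974 CPM there. The lens shares of the endothelial and immunoproteasome lists are therefore partly set by the count filter. Of 16 glycolysis genes, Aldoc fell in lens (6.25%, against 3.89%), and Pfkp and Eno2 rose in NLPCs (12.5%, against 5.95%). Cryab, 1 of 2 measured crystallins, and Tdrd7, 1 of 5 measured lens fibre genes, fell in NLPCs, and no gene of either list was called in lens by edgeR (1 fibre gene lower at an unadjusted p, and 1 gene of each list lower by DESeq2). Of the 4 measured STAR family genes, none besides Qk was called in either system by edgeR (1 higher in lens at an unadjusted p, 1 by DESeq2), and the interaction was called for Qk and for Khdrbs3, at 2.43 ± 0.54 (adjusted p = 0.0147). These genes were chosen for naming after their values had been seen.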
